A study of Drosophila melanogaster with 2 samples.

Results

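Developmental signalling pathways were represented by 36 genes of the Notch, EGFR/Ras, Hippo, JAK/STAT and Wnt pathways, out of 13945 protein-coding genes on the chromosome arms, and the question was where the protein CG11247 sat at them. The members were listed by name (8 of Notch, 8 of EGFR/Ras, 11 of Hippo, 5 of JAK/STAT and 4 of Wnt), and the rule that lists them uses no measured value. Earlier results of these data were known when they were chosen. All 36 were found in the Ensembl annotation, Dl under the symbol Delta. A gene was called bound when a peak summit of the pooled thresholded list lay within 500 bp of a start site of any of its protein-coding transcripts, and 11 of the 36 were: N, Su(H), mam, spi, aos, aop, hpo, yki, Mer, Stat92E and Socs36E. A further 10 members had no such summit and carried passing summits inside the gene, and 15 had neither.

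The data are chromatin immunoprecipitation followed by sequencing (ChIP-seq) of whole Drosophila melanogaster embryos, 0 to 24 h old, of the strain CG11247-GFP, whose insertion expresses CG11247, a zinc finger protein, joined to eGFP. The precipitation used an antibody against GFP, on DNA sonicated to 200 to 800 bp. The labels give 1 group with 2 biological replicates and no other condition, and they do not say what drives the transgene. Peaks of all tissues and stages of the embryo are pooled in each library, so a peak does not tell in which cells, or at which hour, the protein was there. The control experiment that the labels name was not analysed here, so a peak of CG11247 and one that would precipitate with any antibody cannot be told apart. Numbers of reads are not given, so depth is unknown. The pooled list held 4495 passing peaks out of 137752 ranked ones, replicate 1 had 3010 of 109282 and replicate 2 had 2695 of 125735. A passing peak is one in the authors' list at an irreproducible discovery rate (IDR) of at most 0.01, where the IDR measures how well a peak keeps its rank between a pair of inputs. Signals are scores of the authors' peak caller. They are set side by side only within a list, and the median passing peak of the pooled list had 120.4.

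These pathways carry signals between neighbouring cells and are used over and over in the fly embryo. Notch is cleaved after it meets Delta or Serrate on the next cell, and its inner part joins Su(H) and Mastermind on DNA. Spitz activates the EGF receptor and through it Ras, which ends in the ETS-domain proteins Pointed, an activator, and Anterior open (Yan), a repressor. The Hippo kinase cascade restrains growth by keeping the coactivator Yorkie out of the nucleus. In the JAK/STAT pathway the receptor Domeless and the kinase Hopscotch activate Stat92E, and in the Wnt pathway Frizzled receptors stabilise Armadillo, which works with Pangolin on DNA.

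The sequences under the promoter summits show which elements the bound members and 2 members left out of the list hold. Each is 201 bases of the dm6 reference centred on the summit and written 5′ to 3′ on the strand of its gene, and capitals mark matches on either strand to 6 promoter and insulator elements. Su(H), Ras85D and kibra are shown for the DNA replication-related element (DRE) TATCGATA, the site of the factors Dref and BEAF-32. The Ras85D and kibra peaks were past the IDR limit but absent from the thresholded list, and so were not called.
Su(H) promoter, chr2L:15039358-15039558, plus strand: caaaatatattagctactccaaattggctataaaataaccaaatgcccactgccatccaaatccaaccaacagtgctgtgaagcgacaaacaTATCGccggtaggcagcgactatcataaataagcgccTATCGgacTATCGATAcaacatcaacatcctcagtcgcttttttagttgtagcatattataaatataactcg
Ras85D promoter, chr3R:9513059-9513259, minus strand: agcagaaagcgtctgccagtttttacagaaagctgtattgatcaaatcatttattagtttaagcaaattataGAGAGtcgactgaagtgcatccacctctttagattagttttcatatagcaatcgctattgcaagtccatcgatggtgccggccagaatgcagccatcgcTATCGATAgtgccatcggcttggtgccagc
kibra promoter, chr3R:14724265-14724465, minus strand: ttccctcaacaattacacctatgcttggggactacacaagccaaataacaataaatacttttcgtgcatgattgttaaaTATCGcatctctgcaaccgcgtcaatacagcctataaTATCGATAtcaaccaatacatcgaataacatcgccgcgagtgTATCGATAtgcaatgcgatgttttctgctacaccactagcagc
The Su(H) and Ras85D windows held 1 DRE each and the kibra window held 2. The next 3 promoters are shown for contrast: spi, which had the short BEAF-32 site CGATA alone, Mer, which had the CTCF core AGNNGGCGC, and N, which had none of the 6 elements.
spi promoter, chr2L:19575697-19575897, minus strand: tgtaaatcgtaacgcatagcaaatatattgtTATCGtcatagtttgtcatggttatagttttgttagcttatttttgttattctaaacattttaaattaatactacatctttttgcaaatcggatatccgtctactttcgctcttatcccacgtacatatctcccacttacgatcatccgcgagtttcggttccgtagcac
Mer promoter, chrX:19693277-19693477, minus strand: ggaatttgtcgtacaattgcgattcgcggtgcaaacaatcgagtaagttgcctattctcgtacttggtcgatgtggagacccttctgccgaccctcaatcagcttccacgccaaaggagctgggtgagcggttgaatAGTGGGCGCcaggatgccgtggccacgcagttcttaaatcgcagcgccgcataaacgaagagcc
N promoter, chrX:3134574-3134774, plus strand: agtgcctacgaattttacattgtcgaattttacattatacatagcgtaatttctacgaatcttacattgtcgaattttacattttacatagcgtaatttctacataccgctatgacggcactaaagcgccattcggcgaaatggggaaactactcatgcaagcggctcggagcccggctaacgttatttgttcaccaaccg

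The strongest summits of several members were not at promoters but in introns. The windows of aos, fz, N and aop are shown as the places inside these genes with the highest signal (396, 314, 259 and 246), and they were chosen after their values were seen. They are not the top of all members, since the inner summits of mam (398) and drk (367) are not shown. None of the 4 held a DRE, which was in 0.375% of 2397 other passing windows away from promoters. The aos and N windows had CGATA, written TATCG on the other strand, aos and aop had the GAGA element GAGAG, which reads CTCTC on the opposite strand, aop also had the E-box CAGCTG, and fz had none.
aos intron, chr3L:16480476-16480676, minus strand: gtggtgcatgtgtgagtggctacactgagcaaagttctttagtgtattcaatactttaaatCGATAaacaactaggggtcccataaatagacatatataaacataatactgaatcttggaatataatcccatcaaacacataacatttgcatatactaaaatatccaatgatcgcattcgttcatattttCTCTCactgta
fz intron, chr3L:14303958-14304158, plus strand: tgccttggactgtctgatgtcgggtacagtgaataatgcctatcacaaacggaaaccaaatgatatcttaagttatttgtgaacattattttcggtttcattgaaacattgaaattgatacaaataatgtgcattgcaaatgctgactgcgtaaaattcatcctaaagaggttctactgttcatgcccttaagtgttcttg
N intron, chrX:3162446-3162646, plus strand: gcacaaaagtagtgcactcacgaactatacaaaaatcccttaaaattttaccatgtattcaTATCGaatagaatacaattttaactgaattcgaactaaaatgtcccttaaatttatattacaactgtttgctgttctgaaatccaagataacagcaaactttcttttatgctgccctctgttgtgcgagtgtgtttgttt
aop intron, chr2L:2163569-2163769, minus strand: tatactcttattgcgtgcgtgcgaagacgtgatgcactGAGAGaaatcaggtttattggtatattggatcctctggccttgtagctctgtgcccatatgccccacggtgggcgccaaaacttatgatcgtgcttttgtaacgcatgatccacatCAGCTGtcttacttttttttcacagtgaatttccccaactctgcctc

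Of the 36 members 11 were bound in the pooled list, which was 30.6% (Wilson 95% interval 18.0 to 46.9%), against 18.6% of all protein-coding genes. The interval holds the background share, so the members' share was not set apart from it at this number of genes. A ranked summit lay at the promoters of 33 members, all but Delta, H and pan, and 11 of these 33 made 33.3%, against 23.7% of all genes with a ranked summit there. Replicate 1 alone had 6 members bound, or 16.7%, against 14.0% of all genes, and replicate 2 alone had 8, or 22.2%, against 13.6%. Their mean was 19.4 ± 3.93% (SD, n = 2). Both lists shared 5 members, or 13.9%, against 10.8% of all genes. The intervals cover counting error only. By pathway the pooled counts were 3 of 8 for Notch, 3 of 8 for EGFR/Ras (37.5% each, 13.7 to 69.4%), 3 of 11 for Hippo (27.3%, 9.75 to 56.6%), 2 of 5 for JAK/STAT (40.0%, 11.8 to 76.9%) and 0 of 4 for Wnt (up to 49.0%). All 5 intervals overlap and each holds the background, so no pathway stood apart from another. Bound members had a median signal of 112 at their strongest promoter summit, and all bound genes had 150.4.

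**Figure D1:**
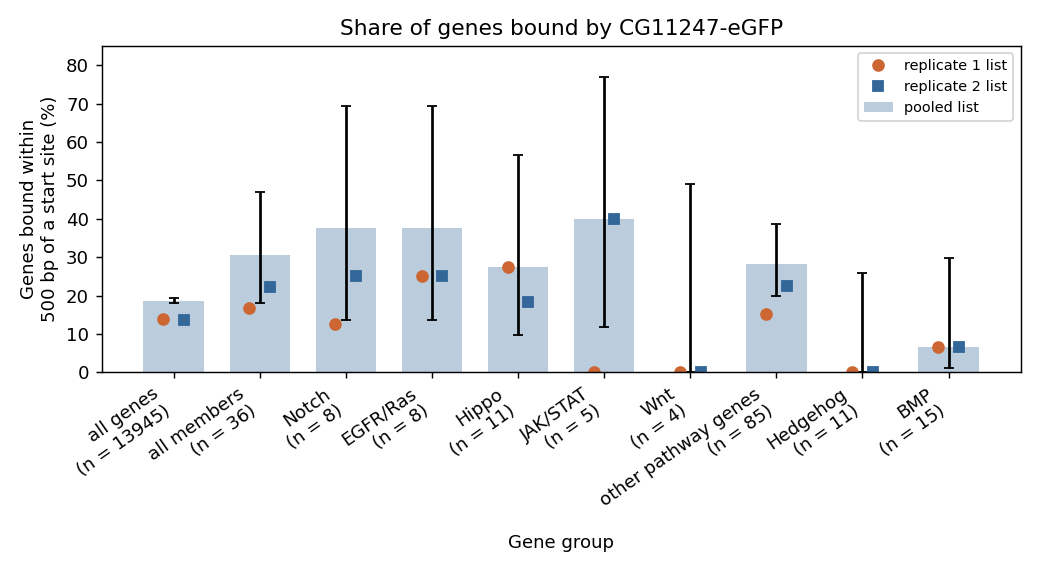
Share of genes bound within 500 bp of a start site (%, vertical axis) by gene group, with bars for the pooled list, Wilson 95% intervals as error bars, and a point for the list of each replicate. The member bars of the 4 pathways with bound genes lie between 27.3 and 40.0%, each with an interval that takes in the 18.6% of all genes, while Wnt and Hedgehog are at 0.

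In the Notch pathway the receptor gene and both DNA-level partners of the receptor were bound, and the ligands and target genes were not. The promoter peak of N, the receptor, lay at chrX:3134502-3134845 with its summit 196 bp upstream of the only start site (offset -196 bp) and had a signal of 156, rank 1544 of the passing peaks. It passed in replicate 1 (67.4) and in replicate 2 (73.5). Su(H), the DNA-binding factor of the pathway, had a peak of 112 at chr2L:15039286-15039629 with an offset of -30 bp. No ranked peak of replicate 1 overlapped it, while replicate 2 had 86.9 and passed, so of the replicate lists only that of replicate 2 called Su(H). The conservative list also held this peak. The peak of mam, the coactivator gene, was the weakest of the 11 (27.6, rank 4329, chr2R:14008832-14009175, offset -195 bp from an inner start site). It passed in neither replicate (54.3 with a −log10 IDR of 1.97 in replicate 1, 34.4 with 0.09 in replicate 2), and a stronger summit at another mam start site (87.6) had a −log10 IDR of 0.71 where 2 was needed. In place of the 27.6 peak, the conservative list held a summit of 71.4 at +57 bp from a mam start site.

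Inside the genes the order was different, since the strongest summit of any Notch member was in an intron of mam. It had a signal of 398 at chr2R:14025062-14025274, rank 308, and passed in replicate 1 (242) and replicate 2 (149). Another 4 intron summits of mam had 78.1 to 85.6, of which 1 passed in a replicate list, that of replicate 2. N had intron summits of 259, 109 and 90.4, and the first of these passed in both replicates (162 and 96.5). That N summit lay 27676 bp from the start site of N and nearer, at 10594 bp, to a start site of CG18508. Delta, a ligand gene, had no ranked summit at its promoter but an intron summit of 126, 4710 bp from its start site, which passed in both replicates (77.3 and 40.5). Serrate (Ser), the other ligand, the Su(H) corepressor gene H and the target genes E(spl)m8-HLH and E(spl)mgamma-HLH, which encode repressors, had no passing summit at the promoter or in the span. The passing summit nearest to E(spl)m8-HLH, 1464 bp away, was 32 bp from a start site of gro, whose product is the corepressor of the E(spl) proteins.

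In the EGFR/Ras pathway the ligand, its antagonist and the ETS repressor were bound, and the adaptor, receptor and exchange factor genes were not. The gene of the ligand Spitz, spi, had the strongest promoter peak of these, 262 at chr2L:19575694-19575821 (rank 683, offset -210 bp from an inner start site). That peak passed in replicate 1 (158) and replicate 2 (104). A second, weaker spi summit of 35.4 had an offset of -416 bp. The gene of the secreted antagonist Argos, aos, had 76.0 at chr3L:16483583-16483926 (rank 4024, offset -105 bp). That peak passed in neither replicate (60.7 in replicate 1, 43.0 in replicate 2), and the conservative list, ranked on the true replicates, held in its place a summit of 104 at -342 bp. The repressor gene aop had 91.9 at chr2L:2161652-2161995, at an inner start site (offset -297 bp). Its peak passed in replicate 2 (61.9) and not in replicate 1 (39.4), where aop was called through another summit of 77.1 at +57 bp from a start site. Thus spi alone of the 3 was at or above the median passing peak.

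The spans of 6 of the 8 EGFR/Ras genes held 15 passing summits, of which 3 were at own promoters of spi and aop. The aos intron summit had 396 at chr3L:16480457-16480673, rank 313, and passed in replicate 1 (238) and replicate 2 (157). The summit of drk, which encodes the adaptor that links the receptor to Sos, had 367 (193 in replicate 1 and 173 in replicate 2, both passing), but it lay 868 bp from a start site of mars and 2540 bp from that of drk. The activator gene pnt was not bound at a promoter yet held 6 summits of 71.5 to 190.2 in introns. The strongest pnt summit passed in both replicates (124 and 65.9), 3 others passed in replicate 1 alone (113, 84.5 and 43.9) and 2 passed in neither. In aop, intron summits of 246 and 133 passed in both replicates. Egfr had an intron summit of 124, passing in both replicates (68.9 and 70.3), and 1 of 99.2 in a coding exon, passing in neither. Among member summits away from own start sites it was the sole one in coding sequence, and own promoter summits were not sorted by exon. Sos, the exchange factor gene of Ras, had no passing summit at the promoter or in the span.

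Ras85D itself, the gene of the small GTPase, had a promoter peak of 144 at chr3R:9512987-9513330 with an offset of -92 bp and a −log10 IDR of 3.33. In replicate 1 the peak had 95.4 and a −log10 IDR of 3.64, and in replicate 2 it had 61.5 and 2.37, all past the limit of 2. It was nonetheless absent from the pooled list and from both replicate lists. The gene kibra, an upstream activator of the Hippo pathway, was also left out, with 163 at chr3R:14724193-14724536, an offset of -104 bp and a −log10 IDR of 3.44 (1.91 in replicate 1, which is under the limit, and 3.64 in replicate 2). These 2 were among 154 peaks of 4649 past the limit that the pooled list left out, 55 of them within 500 bp of a start site, and the reason was not given in the sources used here. Counting them would make 13 bound members. The Ras85D summit also lay within 500 bp of a start site of Rlb1.

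In the Hippo pathway the kinase gene, its nuclear target and an upstream activator were bound. The promoter peak of hpo, the kinase gene that names the pathway, was the strongest of all members, 276 at chr2R:19496820-19496953 (rank 616, offset -40 bp), and passed in replicate 1 (134) and replicate 2 (152). The gene of the coactivator Yorkie, yki, had 180.2 at chr2R:24068661-24069004 (rank 1195, offset -348 bp), which passed in replicate 1 (74.5) but not in replicate 2 (97.2, with a −log10 IDR of 0.76). This summit was 76 bp from a start site of Gpat4, so it is nearer to that gene than to yki. Mer, which encodes the Merlin tumour suppressor upstream of Hippo, had 164 at chrX:19693205-19693548 with the summit 123 bp inside the gene, and passed in replicate 1 (86.5) and replicate 2 (74.1). All 3 were above the median passing peak. The same peak of Mer was also the passing summit nearest to the JAK/STAT receptor gene dome, at 9859 bp.

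Of the 8 other Hippo members, 5 carried intron summits. The kinase gene wts had 169 (76.3 in replicate 1, 98.8 in replicate 2), 155 (90.0 and 67.2) and 85.5 (43.4 and 31.7), the first and second of which passed in both replicates. In kibra, intron summits of 183 and 128 passed in both replicates. In ft, which encodes the Fat cadherin, the summit of 162 passed in both and that of 96.9 in replicate 1 alone. The gene mats, whose product activates Warts, had 149 at 553 bp from its start site, just outside the promoter distance, passing in replicate 1 (88.4) and not in replicate 2 (66.2). The summit of ex, another upstream gene, had 73.3 and passed in replicate 2 alone (52.7). The DNA-binding partner gene of Yorkie, sd, the scaffold gene sav and the cadherin gene ds had no passing summit in the pooled list at the promoter or in the span, though the list of replicate 1 had 1 in the span of ds.

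In the JAK/STAT pathway the transcription factor and the feedback inhibitor were bound in the pooled list, and of the replicate lists only that of replicate 2 called them. Stat92E had 74.8 at chr3R:20550517-20550860 (rank 4068), 418 bp downstream of an inner start site. It had 54.7 and a pass in replicate 2 and 37.7 without a pass in replicate 1. Socs36E, which encodes the inhibitor and is itself a known target of the pathway, had 87.8 at chr2L:18152279-18152622 (rank 3416, offset -34 bp), with 63.0 and a pass in replicate 2 and 20.4 without a pass in replicate 1. The conservative list, ranked on the true replicates, held the Stat92E peak and not that of Socs36E. Both promoter peaks were below the median passing peak, and both genes had stronger summits inside. The Stat92E intron summit had 197 (126 in replicate 1 and 66.6 in replicate 2, both passing). Socs36E had 178, passing in both replicates (114 and 65.4), 168, passing in replicate 1 alone (104), and 91.7, passing in replicate 2 alone (59.1). The ligand gene upd1, the receptor gene dome and the kinase gene hop had no passing summit at the promoter or in the span.

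None of the 4 Wnt members was bound, in the pooled list or in either replicate. The strongest ranked promoter summits had 68.6 at arm, the β-catenin gene, 42.6 at Axn, which encodes the scaffold of the complex that degrades Armadillo, and 27.8 at fz. The receptor gene fz, the longest member at 94.3 kb, had intron summits of 314 (181 and 136 in replicates 1 and 2) and 163 (81.2 and 80.6), and both passed in both replicates. They lay 29715 and 61695 bp from the fz start site. The gene of the DNA-binding factor Pangolin, pan, is on chromosome 4, where the whole pooled ranked list held 15 peaks, and had no ranked summit at a promoter. For arm and Axn no passing summit lay in the span.

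**Figure D2:**
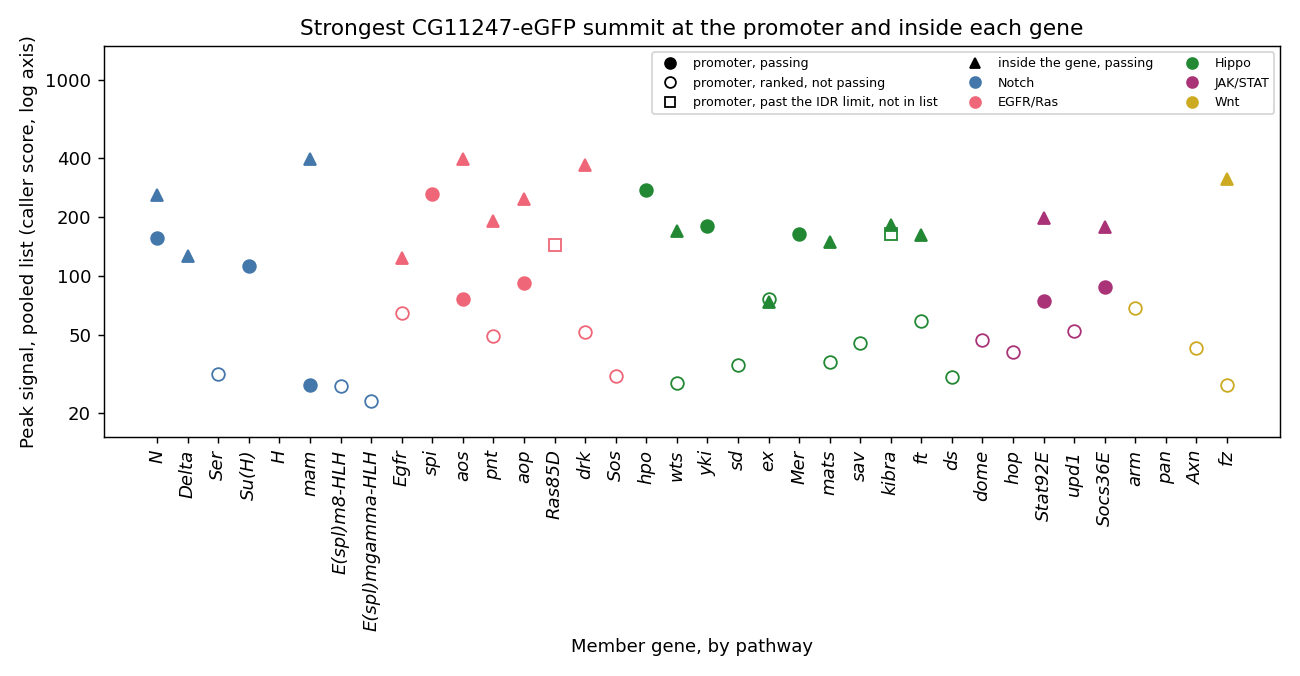
Peak signal in the pooled list (caller score, log axis) for each member, ordered by pathway: the strongest promoter summit that passed (filled circle) or, where none passed, the strongest ranked one (open circle, or open square where it was past the IDR limit but left out), and the strongest passing summit inside the gene (triangle). The 11 filled circles lie between 27.6 and 276, and triangles reach 398 in mam and 396 in aos, above every promoter summit of a member.

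Several promoter calls lay near a limit. The lowest −log10 IDR values among bound members were those of Stat92E (2.43), Socs36E (2.53), aos (2.69), mam (2.70) and aop (2.78), where 2 was needed. Just inside the distance of 500 bp were Stat92E at +418 bp and the second spi summit at -416 bp. Just outside were passing summits 553 bp from a start site of mats, 920 bp from ex (87.8) and 943 bp from pnt (118). Among unbound members with a ranked promoter summit, 22 in number, the strongest signal ranged from 23.0 to 163 with a median of 43.9, and the highest after kibra and Ras85D was ex, with 76.3 and a −log10 IDR of 1.77. Bound and unbound members overlapped in signal, since mam was called at 27.6.

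The replicate lists shared 5 bound members and split on 4. N, spi, aop, hpo and Mer were bound in both lists, which was 83.3% of the 6 of replicate 1 and 62.5% of the 8 of replicate 2. For all genes these shares were 77.6% and 79.9%. Only replicate 1 had yki, only replicate 2 had Su(H), Stat92E and Socs36E, and mam and aos were bound in neither replicate list. Of the 12 own promoter summits, 5 passed in both replicate lists, among them both spi summits, matched to the same peak of replicate 2 (104). Of the 36 summits inside members away from start sites 18 passed in both lists, 11 in 1 list and 7 in neither. The conservative list held 29 of those 36 and bound 10 members, all but Socs36E, though mam and aos through other summits than the pooled list.

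**Figure D3:**
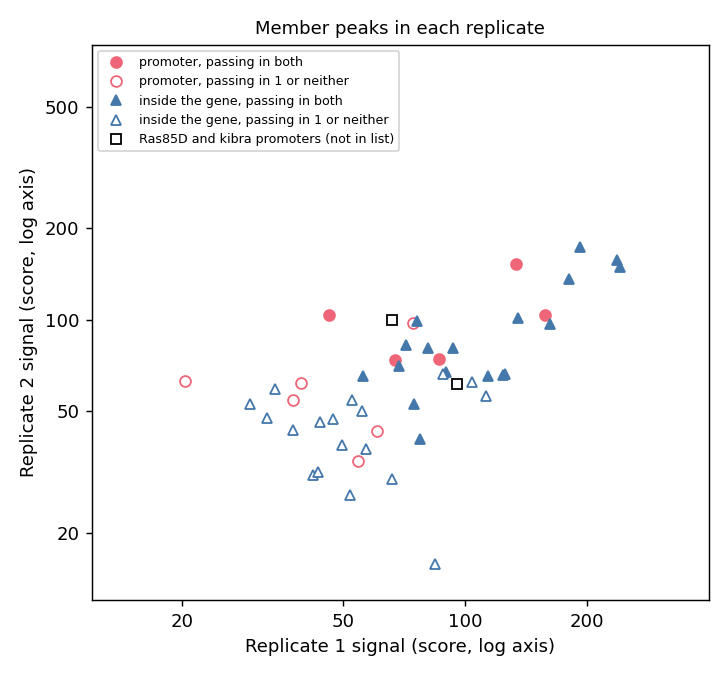
Signal of each member peak in the ranked list of replicate 1 (horizontal) and replicate 2 (vertical), both caller scores on log axes, for promoter summits (circles) and summits inside genes (triangles), filled where the peak passed in both lists. The Su(H) peak is not drawn, since no ranked peak of replicate 1 overlapped it, and drk (193 and 173) is the highest filled point on the replicate 2 axis and Delta (77.3 and 40.5) the lowest, with the spi promoter peak of replicate 2 (104) drawn against both spi summits.

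Passing summits in the gene span, own promoters included, were found at more members than promoter summits were. They lay in the span of 18 of the 36, or 50% (34.5 to 65.5%), against 12.8% of all genes, and the interval lies above that background. The members are long, with a median of 12.9 kb against 2.17 kb, and a long gene can hold more summits. Among genes of 10 kb or more, 14 of 19 members had such a summit, or 73.7% (51.2 to 88.2%), against 44.6% of 1977 genes. Among shorter genes, 4 of 17 members did, or 23.5% (9.56 to 47.3%), against 7.59% of 11968. In both length classes the interval lies above the share of all genes. These counts include own promoter summits, and in the shorter class all span summits of spi and Mer were of that kind. Away from start sites that class thus had drk and mats alone, with summits 868 bp from mars and 553 bp from the mats start site. The shorter class therefore does not show an excess of summits away from start sites. With summits over 500 bp from every start site alone, 16 members had one in the span, against 1073 of the 13945 genes. That count was not split by length. Length was not matched within the classes, since the shorter members had a median of 3.85 kb against 1.83 kb and the longer ones 23.4 against 20.6 kb, and the class limit of 10 kb was chosen after the data were seen. Per kb the members had 0.0578 summits over 726 kb, and all genes had 0.0296 over 96224 kb. The density was 0.101 per kb for JAK/STAT, 0.0970 for EGFR/Ras, 0.0607 for Notch, 0.0508 for Hippo and 0.0124 for Wnt.

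**Figure D4:**
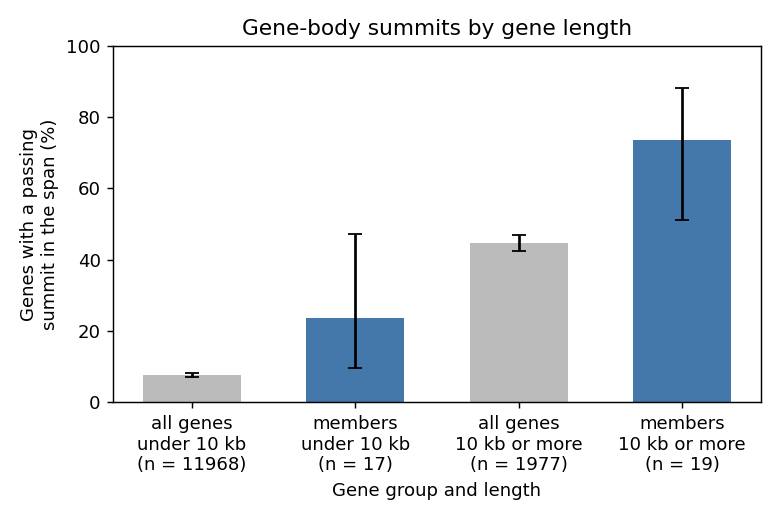
Share of genes with a passing summit in the gene span, own promoters included (%, vertical axis), for all genes (grey) and members (blue), in genes under 10 kb and of 10 kb or more, with Wilson 95% intervals as error bars. Members stand at 23.5% against 7.59% in the shorter class and at 73.7% against 44.6% in the longer one.

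The 42 summits in the spans of members were mostly intronic. Introns held 35, own promoters 6 and a coding exon 1. Own promoters thus held 14.3% of the span summits of members, against 33.1% of the 2852 of all genes. The members are longer (median 12.9 kb against 2.17 kb), and these shares were not compared at equal length. Of the 36 summits away from start sites, 10 were nearer to a start site of another gene than to their own, among them those of drk and fz and the strongest of mam and of N. These 36 had signals of 71.5 to 398 with a median of 131, and the same kind of summit over all genes had a median of 108 (1694 summits). Of the members, 6 had 3 or more summits in the span: mam and pnt with 6 each, and N, aop, wts and Socs36E with 3 each.

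**Figure D5:**
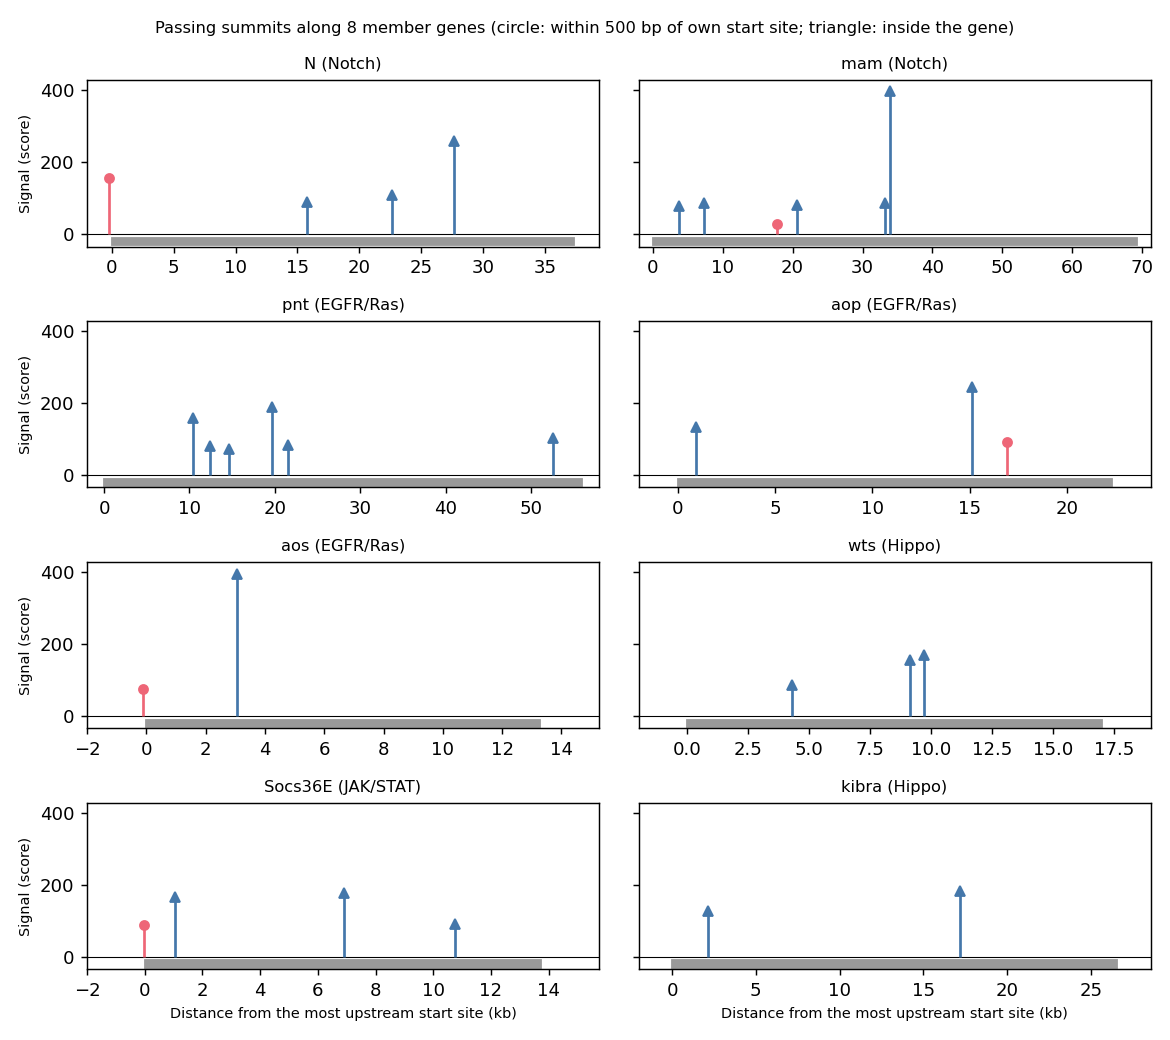
Passing summits of 8 members by distance from the most upstream start site (kb, horizontal axis), with the pooled signal as height (caller score), circles for summits within 500 bp of an own start site and triangles for those inside the gene, over a grey bar for the gene. In N, mam, aop, aos and Socs36E a triangle stands above the circle, at 259, 398, 246, 396 and 178, while pnt, wts and kibra have triangles alone.

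In members with both kinds of summit, the inner one was the stronger in 6 of 6. The pairs, promoter against strongest inner signal, were 156 and 259 for N, 27.6 and 398 for mam, 76.0 and 396 for aos, 91.9 and 246 for aop, 74.8 and 197 for Stat92E, and 87.8 and 178 for Socs36E. Over all genes with both kinds the inner summit was the stronger in 175 of 377, or 46.4%. This comparison was chosen after the values were seen and carries no test. The inner value is the strongest of all inner summits of a gene, and genes were not matched by length or by number of inner summits. The inner summits of mam and N given here were nearer to start sites of CG18371 (3480 bp) and CG18508 (10594 bp) than to their own. The bound members without an inner summit were Su(H), spi, hpo, yki and Mer, of which all but Su(H) had promoter signals above 120.4, the median passing peak.

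Start sites also differ in number between genes, and each gives a gene another chance of a call. Members with 1 start site, 22 of the 36, were bound in 7 cases, or 31.8% (16.4 to 52.7%), against 14.2% of all genes with 1. Those with 2 were bound in 2 of 7, or 28.6% (8.22 to 64.1%), against 27.0% of all genes with 2. Those with 3 or more were also bound in 2 of 7, against 39.5% of all genes with as many. The strongest promoter summits of the 11 bound members lay between -348 and +418 bp of the start site with a median of -105 bp, and 10 of all 12 own promoter summits were upstream. All 2079 passing promoter summits had a median of -78 bp.

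Other genes of the same pathways, listed by knowledge of the pathways, were bound in 24 of 85 cases, or 28.2% (19.8 to 38.6%), against 18.6% of all genes. These genes too were listed with earlier results of these data known. Replicate 1 had 13 of them, or 15.3% against 14.0%, and replicate 2 had 19, or 22.4% against 13.6%, so the share in replicate 1 was near the background. In the Notch pathway 3 of 19 were bound: gro (492, with 267 and 222 in the replicates), numb, the gene of a Notch inhibitor (344), and aph-1, a γ-secretase subunit gene (198), whose summit also lay at Snx21. In EGFR/Ras 3 of 18 were bound. The adaptor gene Shc had 1336, rank 18 of the passing peaks, at a promoter shared with Atat (719 and 620.2 in the replicates), the ligand gene Krn had 287, and the gene S, whose product Star helps to process Spitz, had 93.2 without a pass in replicate 1. In Hippo 6 of 16 were bound, led by dco (369), app (247), hppy (132) and crb (103), the last pair without a pass in replicate 1. In JAK/STAT 1 of 8 was, ken (80.0).

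The Wnt pathway, with no bound member, had 11 of 24 other genes bound, or 45.8% (27.9 to 64.9%), in the pooled list. Replicate 1 had 3 and replicate 2 had 5 of the 24, or 12.5% and 20.8%, so at least 6 of the 11 were called in neither replicate list. The conservative list bound 9 of the 24. The strongest were at sgg, the gene of the GSK3 kinase (366, with 175 and 182 in the replicates), nkd, a feedback inhibitor (198), the kinase gene CkIalpha (142, no pass in replicate 1) and the ligand gene Wnt5 (132). With members and other genes together, shares were 39.3% for Wnt (11 of 28) and 33.3% for Hippo (9 of 27). They were 23.1% for EGFR/Ras (6 of 26) and for JAK/STAT (3 of 13), and 22.2% for Notch (6 of 27), and the intervals overlapped. The replicate lists did not keep this order. In replicates 1 and 2, Wnt had 10.7% and 17.9%, Hippo 18.5% and 25.9%, and EGFR/Ras 15.4% and 30.8%. JAK/STAT had 7.69% and 15.4%, and Notch 22.2% and 18.5%. Of 2 pathways that have no member, Hedgehog had 0 of 11 genes bound (up to 25.9%) and BMP had 1 of 15, shn (232), the gene of a nuclear factor of that pathway.

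Of the 11 bound members, 8 had at least 1 of 6 promoter and insulator elements, on either strand, no more than 100 bp from the strongest promoter summit. That was 72.7% (43.4 to 90.3%), against 63.6% of all 2079 passing promoter windows, which lies within the interval. The DRE TATCGATA was in 2 windows, Su(H) and hpo, against 7.94% of the passing promoter windows and 1.67% of 15704 ranked promoter windows that did not pass. CGATA, which lies within the DRE, was in 5 (Su(H), spi, hpo, Stat92E and Socs36E), against 38.9% of passing windows. The GAGA element GAGAG was in 2 (aos and aop), against 23.5%, and the CTCF core AGNNGGCGC was in 1 (Mer), against 3.42%. Motif 1, GGTCACACT, and the E-box CAGCTG were in 0, against 3.13% and 13.7%. The 11 windows had a GC content of 31.3 to 54.2%, with a median of 41.3%, and passing promoter windows had 37.8%.

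Sites of the pathways' own factors were present in few of these windows, apart from the short Pangolin site. The Su(H) site TGGGAA and the ETS site CCGGAA were in 0 of 11, against 10.4% and 6.20% of passing windows. The Stat92E site TTCNNNGAA was in 1 (N), against 4.38%, and the Scalloped site CATTCC was in 1 (aop), against 6.78%. The short Pangolin site CTTTG was in 5 (mam, hpo, yki, Mer and Stat92E), against 36.7%. With 11 windows a count of 0 leaves wide limits, and a match is only a run of letters. In the 36 inner windows the DRE was in 0, against 0.375% of 2397 other passing windows away from promoters. CGATA was in 10 of the 36 (27.8% against 20.7%), GAGAG in 7 (19.4% against 24.9%), TGGGAA in 4 (11.1% against 11.3%) and CTTTG in 11 (30.6% against 39.7%).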

How the data were processed

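ChIP-seq peaks of CG11247-eGFP were analysed for 1 group of 2 biological replicates, embryos of 0 to 24 h. The deposited files are peak lists on dm6, per the labels: ranked and thresholded peaks of each replicate and of both pooled, and a conservative pair ranked on the true replicates. Signal is, as deposited, a score from the authors' caller, and the deposited IDR is on the −log10 scale. The sources used here name neither caller nor aligner. The deposited listing names, for the thresholded lists, another input without saying what it is.

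Start sites, spans and introns of 13945 protein-coding genes came from Ensembl release 115, and bases from the RefSeq copy of FlyBase assembly release 6 (dm6). Summits within 500 bp of a start site of a protein-coding transcript called a gene bound. Every summit in a gene span was placed at an own promoter, in a UTR, a coding exon or an intron. Replicate values are those of the strongest ranked peak of that replicate that overlaps the pooled peak. Shares have Wilson 95% intervals (Python 3.11.15, SciPy 1.17.1, pandas 2.3.3), which treat genes as units. No test was run, since the labels hold no contrast, and the spread between replicates is given as both values or as mean ± SD. The placement of summits and the motif search were tested on simulated data.

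The members, the lists of other genes and the motifs were chosen with earlier results of these data known. Every member is named. Bound members, the 3 unbound with the highest ranked promoter signal and those with 3 or more summits in the span are given in full, and at most 4 other genes of a pathway. Alternatives were distances of 200 and 1000 bp, the conservative list, each replicate list alone, the stronger 50% of peaks, the peaks past the IDR limit added, weaker overlapping peaks left out, the most upstream start site only, motif windows of 50 bp and overlaps of 1 bp or 50%.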

Additional observations from a re-analysis of the deposited data

How the results depend on the processing

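The count of 11 bound members fell to 7 at 200 bp from a start site, to 7 with the most upstream start site of each gene alone and to 5 with the stronger 50% of passing peaks, and it ranged from 6 to 8 with either replicate left out. It was 14 at 1000 bp, 10 in the conservative list, 13 once peaks past the IDR limit but left out were counted, and 11 without weaker overlapping peaks. N, hpo and Mer were called under all 9 alternatives. Of all 13945 genes, 2599 were bound in the main setting, 1914 at 200 bp, 2319 with the most upstream start site alone and 1699 with the stronger 50% of peaks. With replicate 1 or 2 left out 1891 and 1948 were bound, at 1000 bp 3057, and in the conservative list 2413. Adding the left-out peaks gave 2656, and dropping weaker overlapping peaks gave 2594. So the background count fell as well in each setting where the count of members fell. Members with a summit in the span numbered 16 to 18 under all 5 alternatives tried. The 5 members bound in both replicate lists became 4 where each list needed a peak overlapping the pooled one by 1 bp, and 2 at 50% reciprocal overlap. Windows of 50 bp left 4 in place of 8 members with a promoter or insulator element, or 36.4%, against 38.3% of passing promoter windows. The causes of these changes were not tested, apart from the smaller number of peaks, start sites or bases that the alternatives hold by construction.

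No paired analysis was possible because the labels give 1 group. Read numbers are unknown, and the control was not analysed. Pathways of 4 to 11 members give intervals too wide to order them, and the list of replicate 1 called no JAK/STAT member.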
